A study of Homo sapiens with 6 samples.

Results

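The dual-specificity MAPK phosphatases are a family of enzymes that switch mitogen-activated protein (MAP) kinases off. The 10 genes described here, DUSP1, DUSP2, DUSP4, DUSP5, DUSP6, DUSP7, DUSP8, DUSP9, DUSP10 and DUSP16, were taken by gene symbol from a table of 67140 Ensembl identifiers. All 10 were found, and 9 of them were among the 19254 identifiers with enough counts to be tested. DUSP2 was listed at 0 counts in every sample, as were 32384 identifiers in all, and was not tested.

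The samples were cultures of KYSE150, an established human line of esophageal squamous cell carcinoma (ESCC), grown in RPMI medium with fetal bovine serum. In the shAC007128.1 group (3 samples) the cells carried a short hairpin RNA against the long non-coding RNA AC007128.1, and in the shCtrl group (3 samples) they carried a control hairpin. According to the study's methods, stable lines were made with lentivirus and puromycin. RNA sequencing compared the groups to find transcripts that differ when AC007128.1 is targeted. Both groups come from the same parental line, and only this line was sequenced, so other ESCC lines are not represented.

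Total counts were 72354339, 78610457 and 65140326 in shCtrl replicates 1 to 3 and 57880388, 55764405 and 60158244 in shAC007128.1 replicates 1 to 3. Levels below are in CPM, counts brought to a common library size, with trimmed mean of M-values (TMM) factors to correct for library composition. A count of 0 allows a level of up to 0.0382 to 0.0538 CPM in these samples. That floor is the level of 3 counts over the total counts, without TMM factors, and covers counting error only. Low counts piled up at multiples of 4, for which the sources used here give no reason, so this floor and the errors of genes with few counts may be too small. Mitochondrial genes took 10.1%, 10.2% and 9.69% of counts in shCtrl and 7.80%, 7.68% and 9.72% in shAC007128.1, and the part of this difference in the results was not tested.

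The targeted gene, AC007128.1, was barely detected. Its level was 0.943, 0.410 and 0.781 CPM in shCtrl and 0.320, 0.674 and 0.258 CPM in shAC007128.1, from 69, 33 and 53 against 18, 37 and 15 counts. The groups overlapped, because shAC007128.1 replicate 2 lay above shCtrl replicate 2. On the log2 scale the difference was -0.77 ± 0.51 (SE; adjusted p = 0.271 in edgeR). With a library left out it ran from -0.51 (without shCtrl replicate 1, 0.562) to -1.29 (without shAC007128.1 replicate 2, 0.0959) and never passed, so the table does not show that the target was reduced, and every direction below is between groups as labelled. AC007128.1 shares 900 of its 1853 exon bases with other annotated genes, some of them on the opposite strand, and whether strand was used in counting is not given in the sources used here.

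The squamous label was checked against marker genes. All 10 squamous epithelial markers were detected, with summed levels of 2298 to 2336 CPM in shCtrl and 3473 to 4185 CPM in shAC007128.1, and the keratin KRT5 was the most abundant at a mean of 827.6 CPM. At an adjusted p of at most 0.05 in edgeR, 7 of the 10 rose, beside 21.0% of all tested genes, and 1 fell, beside 19.8%. KRT6A (log2 fold change 2.46 ± 0.10, adjusted p = 1.73e-05), KRT14 (2.28 ± 0.10, adjusted p = 1.89e-05), the junction protein gene PERP (1.54 ± 0.06, adjusted p = 1.6e-05) and EPCAM (0.92 ± 0.07, adjusted p = 8.27e-05) had the smallest p. The marker that fell, named after its values were seen, was the desmoglein gene DSG3, which was called lower (202.7 ± 5.76 to 95.4 ± 9.19 CPM, log2 fold change -1.09 ± 0.09, adjusted p = 0.000122).

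Markers of other cell types were low. The 7 fibroblast markers summed to 15.25 to 16.24 CPM in shCtrl and 20.92 to 23.87 CPM in shAC007128.1, most of it from the collagen gene COL1A1 (13.9 ± 0.89 to 17.5 ± 0.98 CPM), and COL1A2, COL3A1 and DCN stayed at or below 0.219 CPM in every sample. The 5 leukocyte markers summed to at most 1.293 CPM, with CD3E the most abundant and CD14 at or below 0.301 CPM. The 3 endothelial markers summed to at most 3.11 CPM, with VWF the most abundant and PECAM1 at or below 0.654 CPM. LUM, a matrix proteoglycan gene, went from 1.07 ± 0.41 to 4.71 ± 0.72 CPM (SD, n = 3 in each group), while PDGFRB went from 0.471 ± 0.15 to 0.154 ± 0.08 CPM and the endothelial VWF from 2.18 ± 0.28 to 0.807 ± 0.74 CPM. LUM was called higher in edgeR (log2 fold change 2.14 ± 0.33, adjusted p = 0.00193) and PDGFRB lower (-1.60 ± 0.53, 0.0474), while COL1A1 rose by less than the limit on size (0.33 ± 0.11, 0.0462) and VWF did not pass (-1.43 ± 0.61, 0.101). PECAM1 did not pass either, with overlapping groups at 0.131 ± 0.12 and 0.369 ± 0.29 CPM (1.49 ± 0.95, 0.251). With a library left out, its log2 fold change in edgeR ran from 0.78 (without shAC007128.1 replicate 3, 0.619) to 2.48 (without shCtrl replicate 3, 0.14). CDH5, named after its values were seen, had 14, 10 and 44 counts in shCtrl and 0 in each shAC007128.1 sample, too few to be tested. The PDGFRB call was lost in DESeq2 (0.0855), in limma-voom (0.0539), with no filter on low counts (0.0792) and with any library but shAC007128.1 replicate 2 left out (0.0778 to 0.186). The rise of COL1A1 was lost in DESeq2 (0.101), with DESeq2 size factors (0.0518) or library size only (0.117), with no filter (0.132) or the filter of 10 counts per sample (0.0633), and with any library but shAC007128.1 replicate 3 left out (0.0686 to 0.152). VWF was called lower in DESeq2 (0.0297), in limma-voom (0.028) and in edgeR without shAC007128.1 replicate 2 (-2.46, 0.00721). In edgeR with replicate number as a block, VWF was called lower (0.0445), while PDGFRB (0.0778) and COL1A1 (0.0971) did not pass. The part of these shifts in the results was not tested.

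MAP kinases relay signals from growth factors and stress to the nucleus, and they are active only while phosphorylated on both a threonine and a tyrosine of the activation loop. The MAPK phosphatases remove both phosphates, and each member prefers some of the kinases ERK, JNK and p38 and acts in the nucleus, the cytoplasm or both. Many of the genes are themselves induced by MAP kinase signalling, so that their products form a negative feedback loop.

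The promoters of DUSP1, DUSP8 and DUSP10 are shown because the transcripts of DUSP1 and DUSP8 had the largest drops among the well-detected members, while DUSP10 was the member that rose. The RefSeq promoter table (GRCh38.p14) held 8 of the 10 members, with 10 promoters in all, and DUSP4 and DUSP5 had no entry. Each window runs from 250 bases before to 50 bases after the transcription start, and only the 250 bases before it are printed, 5′ to 3′ on the gene's strand. All of these lie on the minus strand: DUSP1 at chr5:172771196-172771445, DUSP8 at chr11:1572272-1572521 and DUSP10, at the more upstream of its 2 starts, at chr1:221742090-221742339. Capitals mark TGACGTCA, the cAMP response element, and TGACG, its core, on either strand.
DUSP1: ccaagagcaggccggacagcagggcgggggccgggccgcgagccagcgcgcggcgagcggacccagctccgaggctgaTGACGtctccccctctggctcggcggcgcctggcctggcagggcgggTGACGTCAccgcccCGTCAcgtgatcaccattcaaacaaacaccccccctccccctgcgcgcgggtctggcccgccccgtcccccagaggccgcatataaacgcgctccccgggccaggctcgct
DUSP8: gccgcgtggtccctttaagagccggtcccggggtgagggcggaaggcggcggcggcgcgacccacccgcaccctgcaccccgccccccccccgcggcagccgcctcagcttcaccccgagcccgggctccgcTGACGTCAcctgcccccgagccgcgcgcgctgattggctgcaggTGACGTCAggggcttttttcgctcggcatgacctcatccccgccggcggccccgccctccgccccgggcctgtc
DUSP10: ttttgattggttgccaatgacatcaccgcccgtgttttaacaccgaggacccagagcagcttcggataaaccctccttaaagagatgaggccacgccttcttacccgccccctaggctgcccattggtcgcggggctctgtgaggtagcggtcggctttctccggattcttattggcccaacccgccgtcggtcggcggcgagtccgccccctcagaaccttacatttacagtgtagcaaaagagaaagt

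The cAMP response element is the sequence bound by CREB and ATF family factors. It reads the same on both strands, so each full element also counts as a pair of core matches. DUSP1 held 1 full element, 125 to 118 bases before the start, and 4 core matches, of which 2 lay inside it. DUSP8 held 2 full elements, 118 to 111 and 74 to 67 bases before the start, and its 4 core matches were all inside them. No other member promoter in the table held a full element, and the only other core match was in the window of the more downstream DUSP10 start.

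Across all 35116 promoters of the same length, the full element occurred in 649 (1.85%), and 21 (0.0598%) held it more than once. The core occurred in 8622 (24.6%). The AP-1 site TGANTCA (7.71% of promoters), the ETS core CCGGAA (17.2%) and the CArG box of the serum response element (1.29%) had no match in any of the 10 member promoters on either strand. A match describes the letters in the window and shows neither binding nor regulation. Of the 436 tested genes with a full element in a listed promoter, 30 (6.88%) were called lower and 27 (6.19%) higher, beside 9.58% and 6.07% of the 11990 tested genes with any listed promoter. The shares called lower and higher were 8.15% and 6.61% with the core, 11.1% and 6.51% with the AP-1 site, 6.90% and 5.08% with the ETS core and 10.7% and 6.95% with the CArG box.

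**Figure D1:**
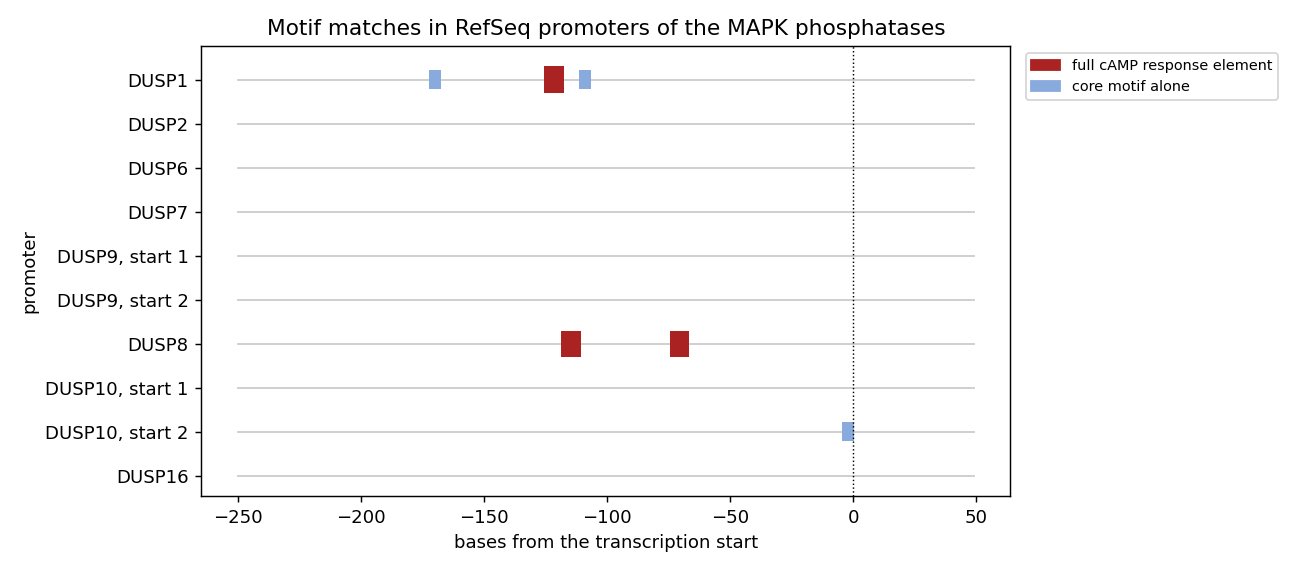
Each line is a RefSeq promoter of a MAPK phosphatase gene, from 250 bases before to 49 bases past the transcription start at 0, plotted in bases from the start. Dark red blocks are full cAMP response elements (1 in DUSP1, 2 in DUSP8) and pale blue blocks are core matches outside a full element.

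Calls needed both an edgeR p of at most 0.05 after Benjamini-Hochberg adjustment over all 19254 tests and a change of at least 1 on the log2 scale in either direction. DUSP1 and DUSP8, 2 of the 9 tested members, were called lower in shAC007128.1, beside 10.1% of all tested genes. None was called higher, beside 5.57%. With no limit on size, 5 members fell, beside 19.8% of tested genes, and 1 rose, beside 21.0%. The 5 became 3 without shCtrl replicate 2 or without shCtrl replicate 3. The shAC007128.1 samples lay wholly below the shCtrl samples for 7 members (28.2% of tested genes) and wholly above them for 1 (27.0%). The median log2 fold change was -0.49 over the 9 tested members and -0.02 over all tested genes. That member median is the value of DUSP6, which did not pass in edgeR and was -0.29 without shAC007128.1 replicate 2. DESeq2 and limma-voom also called 0 members higher, and DUSP10 alone was higher in edgeR at an unadjusted p under 0.05.

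The inducible nuclear members come first. DUSP1 (ENSG00000120129, chr5:172768096-172771195, minus strand) encodes MKP-1, an immediate early phosphatase that acts on p38, JNK and ERK. Its level was 93.6, 94.5 and 90.5 CPM in shCtrl and 24.9, 26.2 and 21.3 CPM in shAC007128.1. All of the shCtrl samples were high and close together, and all of the shAC007128.1 samples were far below them. The transcript fell to 25.9% of the control mean, a log2 fold change of -1.95 ± 0.10 (SE), with an edgeR adjusted p of 3.05e-05, and it ranked 93 by p among all tested genes. In bulk RNA, less of a transcript in each cell and fewer cells with it cannot be told apart.

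DUSP5 (chr10:110497907-110511533, plus strand) encodes a nuclear phosphatase selective for ERK. Its level was 79.03, 78.3 and 79.4 CPM in shCtrl and 66.8, 69.3 and 69.6 CPM in shAC007128.1. The groups did not overlap, although the gap between them was small. It fell by 0.20 ± 0.07 on the log2 scale with an edgeR adjusted p of 0.0495, just inside the limit. Without shCtrl replicate 1, 2 or 3 the adjusted p became 0.135, 0.134 or 0.133, and without shAC007128.1 replicate 1 or 2 it became 0.108 or 0.111. DESeq2 gave 0.0922 and edgeR with replicate number as a block gave 0.127, in a range of 0.0162 to 0.135 over all alternatives.

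DUSP4 encodes MKP-2, another nuclear phosphatase of the inducible group. Its level was 54.1, 57.9 and 57.5 CPM in shCtrl and 47.6, 47.0 and 45.2 CPM in shAC007128.1. The shAC007128.1 samples were all lower, by a modest margin. It fell by 0.28 ± 0.08 on the log2 scale, with an adjusted p of 0.0223 in edgeR. That adjusted p rose above 0.05 without shAC007128.1 replicate 2 (0.0621) and without control replicates 2 (0.0901) or 3 (0.0777). It also did so with replicate number as a block (0.0706), in a range of 0.0102 to 0.0901 over the alternatives. DUSP2, known from immune cells, completes this group and was at 0 in all 6 samples.

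The cytoplasmic ERK phosphatases had no member that passed the edgeR test. DUSP6 (chr12:89347235-89352501, minus strand) encodes MKP-3, a widely used readout of ERK activity. Its level was 34.1, 33.3 and 33.5 CPM in shCtrl and 31.3, 17.1 and 23.5 CPM in shAC007128.1. The control samples were nearly identical, while the shAC007128.1 samples were spread out below them, with replicate 1 near the controls and replicate 2 lowest. The coefficient of variation was 1.29% in shCtrl and 29.7% in shAC007128.1, where it exceeded that of 91.2% of the 12435 genes of at least moderate abundance. The log2 fold change of -0.49 ± 0.20 had an edgeR adjusted p of 0.0927, and DESeq2 gave 0.0328. Without shAC007128.1 replicate 1 it was -0.73 (adjusted p = 0.0151), and without replicate 2 it was -0.29 (0.159), in a range of 0.0151 to 0.188 over the alternatives.

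An unnamed gene on the opposite strand, ENSG00000274021, shares 1105 of the 3859 exon bases of DUSP6. Its level was 8.42 ± 0.83 CPM in shCtrl and 3.40 ± 0.84 CPM in shAC007128.1 (SD, n = 3 each), and edgeR called it lower (log2 fold change -1.31 ± 0.21, adjusted p = 0.00239). Without strand, reads of this gene and of DUSP6 cannot be told apart over the shared bases, so the DUSP6 values are uncertain.

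DUSP7 (chr3:52048919-52056571, minus strand), a close relative of DUSP6, measured 81.3, 77.2 and 80.5 CPM in shCtrl and 83.0, 84.4 and 79.3 CPM in shAC007128.1. The groups overlapped, and no sample stood out. Its log2 fold change of 0.05 ± 0.07 did not pass (adjusted p = 0.648 in edgeR), and scaling by library size alone turned its sign, to -0.03.

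DUSP9 (chrX:153642492-153651326, plus strand) encodes MKP-4 and was close to the detection limit. It had 66, 38 and 72 counts in shCtrl and 5, 25 and 5 in shAC007128.1, or 0.902, 0.472 and 1.06 CPM against 0.0889, 0.455 and 0.0860 CPM. The groups did not overlap, but shAC007128.1 replicate 2 almost reached shCtrl replicate 2. The log2 fold change of -1.95 ± 0.71 had an edgeR adjusted p of 0.0648. DESeq2 (adjusted p = 0.0297) and limma-voom (0.0482) placed it past the limits. Without shAC007128.1 replicate 2 the log2 fold change was -3.18 (adjusted p = 0.00828, in a range of 0.00828 to 0.175 over the alternatives).

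The JNK and p38 phosphatases moved in both directions. DUSP8 (ENSG00000184545, chr11:1554051-1572271, minus strand) encodes a phosphatase that prefers the stress-activated kinases. Its level was 36.5, 37.5 and 34.8 CPM in shCtrl and 11.3, 9.85 and 10.2 CPM in shAC007128.1. The samples of each group were close together, and the groups were far apart. The transcript fell to 28.8% of the control mean (log2 fold change -1.80 ± 0.10, edgeR adjusted p = 3.78e-05).

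DUSP8P5, a pseudogene of DUSP8, had 5.66, 5.51 and 5.31 CPM in shCtrl and 3.13, 3.75 and 4.03 CPM in shAC007128.1. Reads that fit both could have been divided between them, which makes the DUSP8 level uncertain. The sum of DUSP8 and DUSP8P5 was 41.8 ± 1.49 CPM in shCtrl and 14.1 ± 0.43 CPM in shAC007128.1 (SD, n = 3 each), 33.7% of the control, so the drop was nearly as large with both counted. DUSP5P1, a pseudogene of DUSP5, was at or below 0.684 CPM in every sample.

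DUSP10 (ENSG00000143507, chr1:221701424-221742089, minus strand) encodes MKP-5, which acts on p38 and JNK. Its level was 34.2, 32.4 and 31.7 CPM in shCtrl and 45.4, 47.8 and 47.8 CPM in shAC007128.1. All of the shAC007128.1 samples were higher than all of the controls, the only member for which this was so. The transcript rose to 143.5% of the control mean (log2 fold change 0.52 ± 0.08, edgeR adjusted p = 0.002), under the limit on size for a call.

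DUSP16 (ENSG00000111266, chr12:12473282-12562863, minus strand) encodes MKP-7, a phosphatase of JNK and p38 that shuttles between nucleus and cytoplasm. Its level was 63.9, 64.3 and 62.0 CPM in shCtrl and 36.8, 41.4 and 47.2 CPM in shAC007128.1. The controls were tight, the shAC007128.1 samples varied more, and the groups remained apart. It fell to 65.9% of the control mean (log2 fold change -0.60 ± 0.10, edgeR adjusted p = 0.00348).

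**Figure D2:**
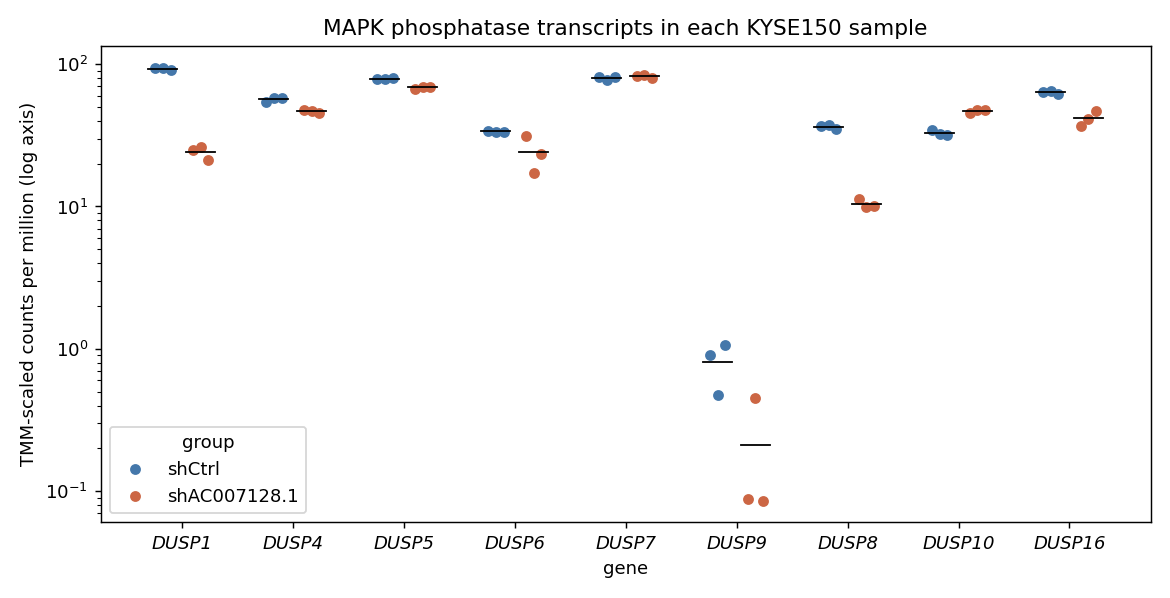
Points give the TMM-scaled CPM of each of the 9 detected MAPK phosphatase genes in each sample on a log axis, in shCtrl (blue) and shAC007128.1 (orange), and black lines give group means. DUSP1 and DUSP8 are separated by wide gaps, DUSP10 is higher in shAC007128.1, DUSP7 overlaps, and DUSP2, at 0 in every sample, is not drawn.

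**Figure D3:**
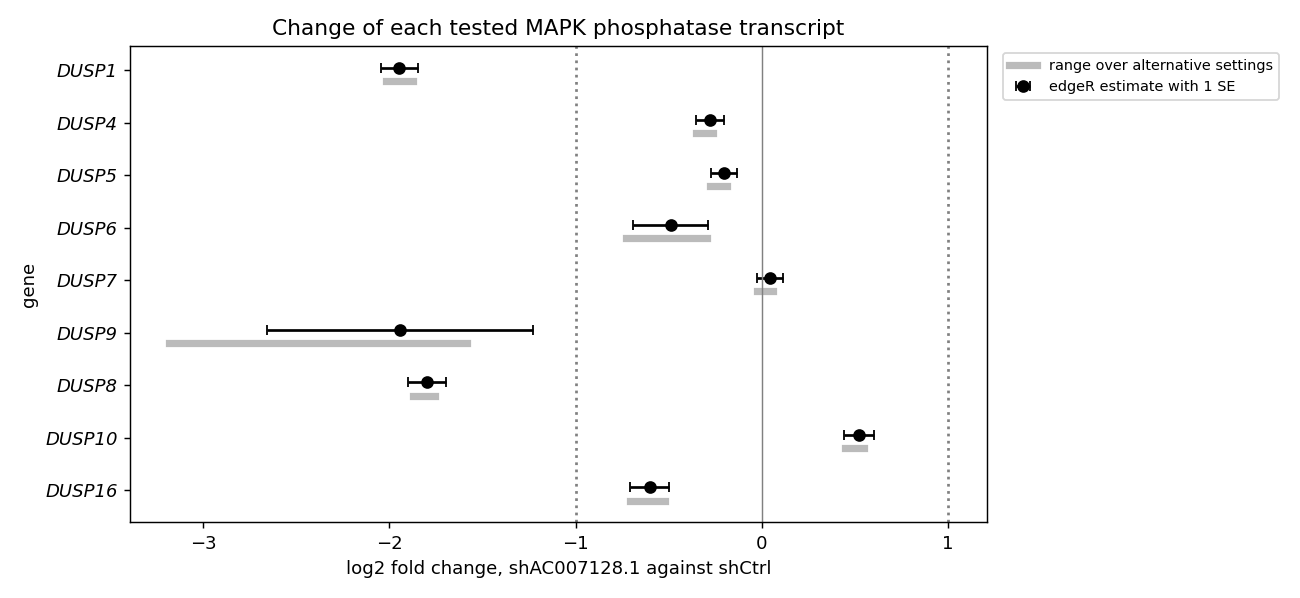
Black points are edgeR log2 fold changes of shAC007128.1 against shCtrl with bars of 1 standard error, grey bars span the values under the alternative settings, and dotted lines mark the size limits of -1 and 1. DUSP1 and DUSP8 lie beyond -1 under every setting drawn, DUSP9 does too but with a wide error, and DUSP7 crosses 0, being below it when scaled by library size alone.

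Levels of different genes were compared per kilobase of exon. In shCtrl, DUSP1 was the most abundant at 46.2 ± 1.05 CPM per kilobase (SD, n = 3), followed by DUSP5 at 31.1 ± 0.21, DUSP7 at 14.1 ± 0.39 and DUSP10 at 11.6 ± 0.46. DUSP16 and DUSP6 overlapped in the next place at 8.89 and 8.72 CPM per kilobase, as did DUSP4 and DUSP8 at 7.77 and 7.31. DUSP9 was at 0.293 CPM per kilobase.

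The order differed in shAC007128.1. DUSP5 came to the top at 27.0 ± 0.61 CPM per kilobase, DUSP10 was next at 16.6 ± 0.51 and DUSP7 followed at 14.5 ± 0.46, with DUSP1 below them at 12.0 ± 1.26. DUSP4, DUSP6 and DUSP16 could not be separated, at 6.41, 6.21 and 5.86 CPM per kilobase, and DUSP8 dropped below all 3 at 2.10. DUSP9 remained the lowest detected member at 0.0759 CPM per kilobase. Part of the order rests on the length used. With the longest transcript as length, chosen after seeing the data, DUSP7 was 1.69 times as high in both groups and passed DUSP10 in shAC007128.1 (24.5 ± 0.78 against 18.2 ± 0.55), and DUSP4 moved above DUSP16 and DUSP6 in shCtrl (10.2 against 9.52 and 9.28).

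Summed over the 10 genes, the level was 137.0, 136.3 and 134.4 CPM per kilobase in shCtrl and 91.5, 91.0 and 89.9 in shAC007128.1. The samples within each group were almost equal, and the gap between groups was many times their spread, with the shAC007128.1 mean at 66.8% of the control. The makeup of the sum also differed. DUSP1 gave 34.0% ± 0.50 (SD, n = 3) of it in shCtrl and 13.2% ± 1.3 in shAC007128.1. DUSP10 went from 8.53% ± 0.26 to 18.3% ± 0.68 and DUSP5 from 22.9% ± 0.34 to 29.8% ± 0.90. A share can rise while the level of its gene falls, as it did for DUSP5.

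**Figure D4:**
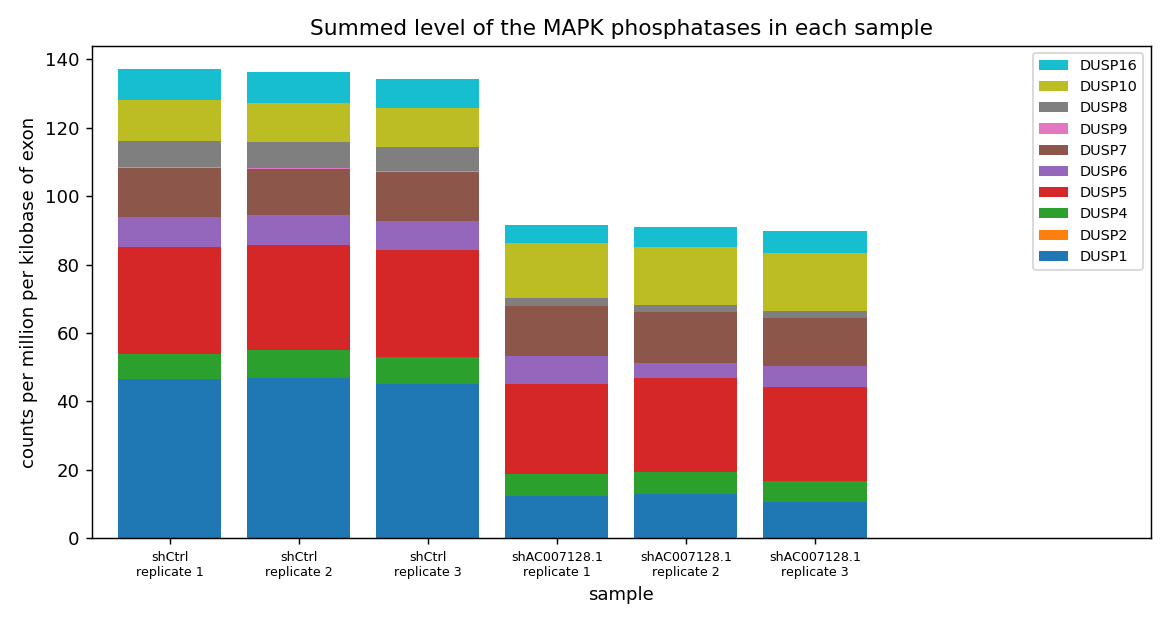
Stacked bars give the CPM per kilobase of exon of the 10 MAPK phosphatase genes in each sample. The sum is 134.4 to 137.0 in shCtrl and 89.9 to 91.5 in shAC007128.1, and the blue DUSP1 segment at the base accounts for most of the difference.

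The genes most like each member were sought among 11163 tested protein-coding genes, by the root mean squared difference of centred log2 CPM over the 6 samples. For DUSP1 these were TIMP2 (0.0537) and ST6GALNAC2 (0.0545), for DUSP8 UPP1 (0.0603) and SLC7A5 (0.0648), for DUSP10 KCTD3 (0.0262) and RTN4IP1 (0.0298), and for DUSP16 MBLAC2 (0.03) and SERPINB2 (0.0338). Those of DUSP4 were NAXD (0.0187) and ZBTB45 (0.0246), those of DUSP5 DDX17 (0.0232) and APLP2 (0.0266), and those of DUSP7 ARHGEF11 (0.0171) and RPL23A (0.0261). DUSP6 had more distant neighbours, PSMG4 (0.065) and XNDC1N (0.0888). With only 2 groups, such likeness mostly reflects a similar fold change.

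Of the 18 atypical dual-specificity phosphatase genes listed, which lack the kinase-binding domain of the MAPK phosphatases, 16 were found and 10 tested, with 2 lower, 2 higher and a median log2 fold change of -0.13, beside 19.8% lower and 21.0% higher of all tested genes. STYXL1, a catalytically inactive relative, was called higher (19.9 ± 0.95 to 50.7 ± 6.88 CPM, log2 fold change 1.35 ± 0.12, edgeR adjusted p = 0.00017), and STYX, also inactive, rose by less (0.64 ± 0.12, adjusted p = 0.0043). DUSP14 was lower at -0.36 ± 0.09 (adjusted p = 0.0131), and this passed neither without shCtrl replicate 1 (0.0541) nor without shCtrl replicate 2 (0.0557).

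DUSP3, an atypical phosphatase that acts on ERK and JNK, had controls that differed widely. Its level was 82.5, 81.4 and 19.4 CPM in shCtrl and 17.0, 16.2 and 17.1 CPM in shAC007128.1. The control samples disagreed with each other, replicate 3 being close to the shAC007128.1 samples. It was called lower (log2 fold change -1.87 ± 0.49, edgeR adjusted p = 0.0189), but the call ended without shCtrl replicate 1 (adjusted p = 0.062) or 2 (0.0609) and without shAC007128.1 replicate 1 (0.0547), 2 (0.0615) or 3 (0.058), and in limma-voom (0.0666).

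Of 8 other phosphatases that act on MAP kinases, 6 were tested, 3 were higher and none lower at any size, beside 21.0% and 19.8% of all tested genes, with a median of 0.26. PPM1D, a p53-induced phosphatase of p38, rose from 12.0 ± 1.74 to 21.5 ± 2.77 CPM (log2 fold change 0.84 ± 0.15, edgeR adjusted p = 0.00425), and PPM1A rose by 0.41 ± 0.09 (0.00883). The catalytic subunit genes of protein phosphatase 2A had log2 fold changes of 0.29 ± 0.07 for PPP2CA (adjusted p = 0.0154) and 0.24 ± 0.11 for PPP2CB (0.136). PPP2CA did not pass without shCtrl replicate 2 (0.0642) or 3 (0.0691), in DESeq2 (0.0564) or with no filter on low counts (0.062).

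Of the 12 MAP kinase genes tested, 4 rose and 3 fell, beside 21.0% and 19.8% of all tested genes, with a median of 0.20. MAPK3, which encodes ERK1, had overlapping groups at 64.3 ± 5.69 CPM in shCtrl and 71.6 ± 6.16 CPM in shAC007128.1 (SD, n = 3 each; edgeR adjusted p = 0.262). The JNK genes MAPK8 and MAPK9 had log2 fold changes of 0.24 ± 0.12 (adjusted p = 0.156) and 0.38 ± 0.09 (0.0147), the latter lost without shCtrl replicate 1 (0.0619) or 2 (0.0531).

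MAPK14, which encodes the p38 alpha kinase, varied within both groups, at 36.9, 12.2 and 12.9 CPM in shCtrl and 19.6, 62.6 and 62.5 CPM in shAC007128.1. A single sample of each group lay nearer the other group, and the ranges overlapped. The log2 fold change of 1.22 ± 0.56 did not pass in edgeR (adjusted p = 0.126), but it did without shCtrl replicate 1 (1.94, adjusted p = 0.0315) or without shAC007128.1 replicate 1 (1.60, 0.0435). MAPK15 was called lower (-1.07 ± 0.26, adjusted p = 0.0134), which fell short of the size limit without shCtrl replicate 3 (-0.91) or shAC007128.1 replicate 3 (-0.89). MAPK6 rose by 0.38 ± 0.09 (0.0141), lost without shCtrl replicate 1 (0.0513) or 2 (0.0631).

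Among the 7 MAP kinase kinase genes, which encode the activators, 3 rose and 1 fell, beside 21.0% and 19.8% of all tested genes, with a median of 0.22. MAP2K4 and MAP2K6, activators of JNK and p38, were called higher, at log2 fold changes of 1.20 ± 0.15 (edgeR adjusted p = 0.000706) and 1.78 ± 0.40 (0.0104). MAP2K3, another activator of p38, fell by 0.77 ± 0.09 on the log2 scale (adjusted p = 0.000643). MAP2K1, an activator of ERK, had a log2 fold change of 0.22 ± 0.06 (adjusted p = 0.028), which did not pass without shCtrl replicate 1 (0.0695), 2 (0.106) or 3 (0.117) or without shAC007128.1 replicate 1 (0.075) or 2 (0.0557). It also failed in DESeq2 (0.142), with library size only (0.0887), with no filter (0.13) and with replicate number as a block (0.0617).

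Transcripts known to respond to ERK signalling were examined because several MAPK phosphatases belong to that response. All 23 listed were tested, 12 fell and 3 rose at any size, beside 19.8% and 21.0% of all tested genes, and 6 were called lower and none higher, beside 10.1% and 5.57%. The median was -0.43, against -0.02 over all tested genes. That list median is the value of IER2, named after its values were seen, which had overlapping groups and did not pass (adjusted p = 0.147 in edgeR). The transcription factor gene EGR1 went from 385.9 ± 7.40 to 91.7 ± 7.09 CPM (SD, n = 3 each; log2 fold change -2.07 ± 0.08, edgeR adjusted p = 1.6e-05). FOS went from 189.2 ± 9.07 to 44.2 ± 3.05 CPM (-2.10 ± 0.08, adjusted p = 1.6e-05). These drops, and that of FOSB (-1.72 ± 0.13, adjusted p = 0.00011), were close in size to those of DUSP1 and DUSP8, while PHLDA1 changed by less (-0.92 ± 0.06, 4.89e-05). Those that rose, named after their values were seen, were the feedback inhibitor genes SPRED1 (0.64 ± 0.11, adjusted p = 0.00323) and SPRED2 (0.26 ± 0.07, 0.0237) and the transcription factor gene ETV5 (0.37 ± 0.08, 0.00771). The cyclin gene CCND1, also named afterwards, had overlapping groups at 364.4 ± 2.08 and 367.8 ± 6.21 CPM (adjusted p = 0.869).

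Glucocorticoids also induce DUSP1, so transcripts known to respond to them were listed, together with the gene of their receptor, NR3C1. Of the 7 tested, 3 rose and 2 fell, beside 21.0% and 19.8% of all tested genes, with a median of 0.71. That median is the value of NR3C1, which is also among those that rose. FKBP5 (log2 fold change 1.30 ± 0.11, edgeR adjusted p = 0.000157) and CRISPLD2 (1.17 ± 0.22, 0.00479) were called higher, and the receptor gene NR3C1 rose by 0.71 ± 0.09 (0.000997). SGK1 fell by 0.86 ± 0.17 on the log2 scale (0.00686), and so did PER1, named after its values were seen, by 0.79 ± 0.16 (0.00739).

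DUSP1 messenger RNA carries AU-rich elements, to which decay and stability factors bind. Of 8 genes for such factors, 5 rose and 1 fell, beside 21.0% and 19.8% of all tested genes, with a median of 0.47. ZFP36L2, a decay factor, rose from 82.1 ± 3.41 to 151.8 ± 5.47 CPM (log2 fold change 0.89 ± 0.07, edgeR adjusted p = 0.000124), and its relative ZFP36L1 fell from 187.7 ± 0.98 to 114.3 ± 1.62 CPM (-0.71 ± 0.06, 0.000154). ELAVL1, which stabilizes messages, rose by 0.47 ± 0.06 (0.00105). HNRNPD had a log2 fold change of 0.26 ± 0.07 (0.02), which did not pass with shCtrl replicate 1 (0.077), 2 (0.0546) or 3 (0.09) left out, or without shAC007128.1 replicate 1 (0.0538) or 2 (0.0562), nor in DESeq2 (0.0771), with library size only (0.063) or with no filter (0.0917).

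**Figure D5:**
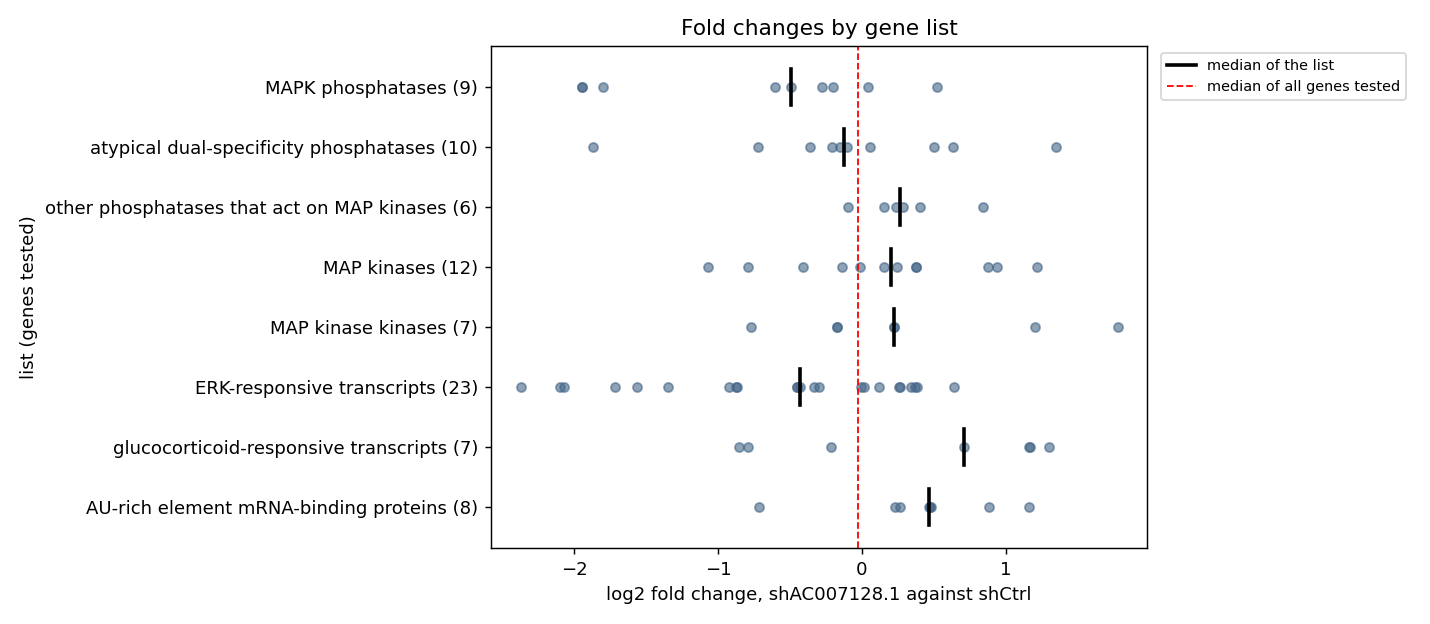
Each point is the log2 fold change of a tested gene, shAC007128.1 against shCtrl, in the list named on the left with its number of tested genes, black bars are list medians and the dashed line is the median of all tested genes. The MAPK phosphatases (median -0.49) and the ERK-responsive transcripts (-0.43) have the lowest medians of the 8 lists drawn. The glucocorticoid-responsive transcripts have the highest (0.71), in a list with genes that rose and genes that fell. These medians are the values of DUSP6, IER2 and NR3C1, and neither DUSP6 nor IER2 passed in edgeR.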

How the data were processed

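RNA sequencing of 6 KYSE150 samples was analysed, with groups and replicate numbers taken from the labels' titles and descriptions. The labels' treatment text names shAC007128.1 for every sample and was not used. The authors deposited unnormalized estimated counts for each Ensembl identifier, which were already whole numbers. The submitters' processing notes name CASAVA 1.8, TopHat2 2.0.6 and the builds GRCh38 and mm10; the counting program, annotation and use of strand are not given in the sources used here. Low counts gathered at multiples of 4 (in shCtrl replicate 1, 1355 identifiers had 4 counts, against 761 with 3 and 993 with 5), so counts divided by 4 were also tried.

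Symbols, positions and exon lengths came from GENCODE annotation on hg38, which held 60357 of 67140 identifiers (89.9%). Identifiers were filtered with filterByExpr, scaled by TMM and tested with the quasi-likelihood test of edgeR 4.0.16 in R 4.3.3, with Benjamini-Hochberg adjustment over all 19254 tested. Standard errors are the log2 fold change over the root of F. Alternatives were DESeq2 1.42.0, limma-voom (limma 3.58.1), other scalings and filters, the replicate block, each sample left out, and a stricter limit. The fits were tested on simulated data.

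Named genes were the 10 members, AC007128.1, the 4 tested genes of smallest p in each list (all of a list of 4 or fewer), MAPK3, MAPK8 and MAPK14, and the 2 genes most like each member with a mean of at least 1 CPM. Some genes that this rule names are not reported here. DSG3, CDH5, IER2, SPRED1, SPRED2, ETV5, CCND1 and PER1 were named after their values were seen. KRT5, COL1A2, COL3A1 and DCN also fall outside this rule and are given for their levels. The pseudogenes and ENSG00000274021 were added for shared reads. Members and lists were chosen with earlier results of these data known. The labels do not say that replicates were separate cultures, so p-values measure only the spread between these samples, which may be technical. Protein sequences were not used here.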

Additional observations from a re-analysis of the deposited data

How the results depend on the processing

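DUSP1 (log2 fold change -2.02 to -1.87) and DUSP8 (-1.87 to -1.76) were called lower in all 15 alternatives, and DUSP10 (0.45 to 0.55) and DUSP16 (-0.71 to -0.52) passed the limit on adjusted p in all 15. DUSP4 passed in 10 of 15, DUSP5 in 7, DUSP6 in 2 and DUSP7 in none, and DUSP9 passed in 3 of 13. DUSP7 reversed with library size only (-0.02852). The number of members lower at any size was 3 with the replicate block and at an adjusted p of at most 0.01, and 3 to 5 with a sample left out. DESeq2 and limma-voom each gave 6 members lower at any size and 3 called lower, against 5 and 2 in edgeR. Samples of the same number did not deviate together (correlations 0.03, -0.03 and -0.03). Whether they were prepared together is not given in the sources used here. At an adjusted p of at most 0.01, 2579 genes were higher and 2308 lower at any size; that limit is stricter by construction. The summed member level was 151.2 and 105.8 CPM per kilobase (shCtrl and shAC007128.1) with the longest transcript as length and 139.3 and 88.45 with library size only. The cause of the other differences was not tested. DUSP9 and AC007128.1 rest on at most 72 counts in any sample, and DUSP2 was listed at 0.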
